A study of Mus musculus with 6 samples.

Results

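Laminins and the proteins that accompany them in the vascular basement membrane were examined here as 7 genes, *Lama2*, *Lama4*, *Lamc1*, *Lamb3*, *Sparc*, *Timp2* and *Timp3*, in mouse brain. A gene was taken by every probe set annotated with its symbol alone, which gave 186 of the 58919 probe sets tested and 7 of 5017 genes. All 6 arrays of the series entered. The 3 control arrays carry the genotype APPPS1-FVB, and the 3 knockout arrays, so called in their titles, carry APPPS1-FVBxABCC1. Both groups share the APPPS1 transgenes, mutant human APP and presenilin under a *Thy1* promoter that acts in neurons, on the FVB strain, so both are models of amyloid deposition and neither is a wild-type brain. The labels give no age, sex or batch and leave unsaid whether each array is an animal of its own, so a p-value here reflects the spread between samples, which may be technical. *Abcc1* itself was not analysed here, so the labels were not checked against the targeted gene.

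Basement membranes are thin sheets of matrix that surround brain capillaries and lie between endothelial cells, pericytes and astrocyte endfeet. Laminins, which are trimers of an alpha, a beta and a gamma chain, form one of their networks, collagen IV forms another, and nidogen and perlecan link them. SPARC binds collagen and calcium and modulates how cells attach to matrix, and TIMPs inhibit the metalloproteinases that cut it. In amyloid models the vessel wall is also a site where amyloid peptide can deposit.

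The median log2 signal of an array was 7.04 to 7.09, and pairs of arrays correlated between 0.984 and 0.990. A gene is called measured where the deposited values used here held a probe set with its symbol alone. All genes means these 5017, and a gene outside them was not examined, though it may be on the array. Of markers fixed for neurons, 4 of 15 genes were measured, with mean log2 signals of 10.69 to 10.70 in the controls and 10.68 to 10.76 in the knockouts. Of 31 endothelial markers 8 were measured, at 7.11 to 7.20 in the controls and 7.07 to 7.13 in the knockouts. Endothelial genes such as *Cldn5* and *Flt1* were not analysed here, so the vascular share of each sample rests on those 8. In whole tissue, fewer cells of a type and less RNA per cell cannot be told apart.

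Over whole genes, none of the 7 passed the test. By the mean over a gene's probe sets, 5 were lower and 2 higher in the knockouts, with limma adjusted p between 0.231 and 0.892 and a median log2 difference of -0.08. In this test 0% of all 5017 genes passed and 51.8% were lower, with a median of -0.0044. A raw p below 0.05 was reached by 1 of the 7, lower, and by 14.1% of all genes, 7.95% higher and 6.12% lower. The same 5 and 2 were counted after quantile normalization and after median centring. By the brightest probe set of each gene 3 were lower and 4 higher, so the direction of *Lamc1*, *Lamb3*, *Timp2* and *Timp3* depends on how a gene is summarised. Of the 186 probe sets, 9 were higher and 9 lower at a raw p below 0.05, beside 4.75% and 2.94% of all probe sets, or 7.69% together. The knockout arrays lay wholly outside the control range for 1 of the 7, *Sparc*, beside 20.2% of all genes.

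**Figure D1:**
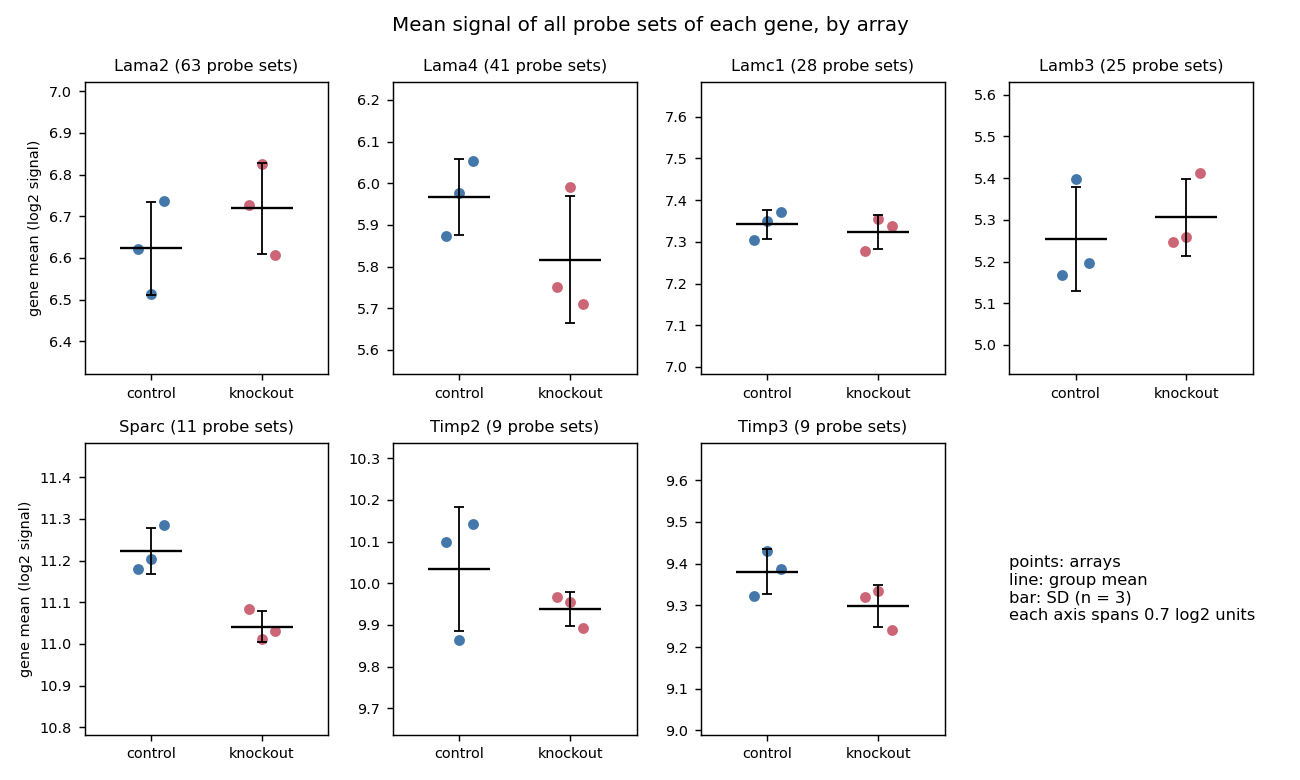
Mean log2 signal of all probe sets of each gene (vertical axis) on each of the 3 control and 3 knockout arrays (points), with the group mean (line) and SD (bar, n = 3); every axis spans 0.7 log2 units. The 3 knockout arrays of Sparc, at 11.01 to 11.08, lie below its 3 controls, at 11.18 to 11.28, while the groups of the other 6 genes overlap.

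*Lama2* encodes the laminin alpha 2 chain, which is known for muscle and for the basement membrane of brain vessels. Its gene mean over 63 probe sets was 6.62, 6.51 and 6.74 in controls 1 to 3, and 6.73, 6.82 and 6.61 in knockouts 1 to 3. The groups overlapped, and the log2 difference was 0.095 (SE 0.077, limma adjusted p = 0.604). Behind this small value stood 1 probe set that differed from the rest by a wide margin. Probe set 10368434 was at 3.04, 3.92 and 3.95 in controls 1 to 3, and at 6.68, 7.62 and 6.78 in knockouts 1 to 3. All knockouts lay far above all controls, from 3.64 ± 0.52 (SD, n = 3) to 7.03 ± 0.52 (SD, n = 3). The log2 difference of the measured values was 3.39 (SE 0.35), and 5 of 58919 probe sets (0.00849%) reached a difference of 3. Because the controls lay below the median control feature of their arrays, the fold has only a bound. With each control raised to that median the knockouts were at least 7.5-fold higher, and neither the size nor the rank of the measured difference is exact. In the limma fit its raw p was 5.30e-05 and its adjusted p 0.145, short of the threshold of 0.05, which 3 probe sets (0.00509%) passed. With a variance trend and robust moderation it passed (limma adjusted p = 0.0372), as 21 probe sets (0.0356%) did. Over 11 alternatives that kept this probe set the limma adjusted p ran from 0.0372 to 0.660.

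The controls of 10368434 lay in the lower part of the range of the array's own control features. Both groups lay under the 95th percentile of those features, 9.98, a limit that only 5609 of 58919 probe sets exceeded in mean signal. All 3 control values lay below the median control feature of the same array, which was 4.09 to 4.16, and all 3 knockouts lay above theirs, 4.20 to 4.29. Such a change of side was seen at 19 of all probe sets (0.0322%) and at no other of the 186, and the opposite one at 104 (0.177%) and at none of the 186. At its 10 nearest neighbours by ID, all of them of *Lama2*, the median log2 difference was 0.11 and the range -0.27 to 0.45. The adjacent 10368433 was at 4.92, 5.33 and 4.76 in the controls and 5.60, 5.31 and 5.26 in the knockouts. On the other side 10368435 was at 7.14, 6.55 and 6.98 against 7.15, 7.32 and 7.30. At neither neighbour was the gap between the groups as large as 0.5.

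A further *Lama2* probe set, 10368443, also stood out from the gene. It was at 4.45, 3.41 and 2.87 in controls 1 to 3, and at 5.26, 6.56 and 4.70 in knockouts 1 to 3. The groups did not overlap, but knockout 2 was well above the other knockouts, and the SD was 0.80 in the controls and 0.95 in the knockouts. Controls 2 and 3 lay below the median control feature of their arrays, 4.16 and 4.11, so the size of the difference is not exact here either. The log2 difference was 1.93 (SE 0.58, limma adjusted p = 0.581), with values from 1.40 without knockout 2 to 2.37 without control 1. Its neighbour 10368442 had -0.44 and 10368444 had 0.15, and over its 10 nearest neighbours the median was 0.12.

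**Figure D2:**
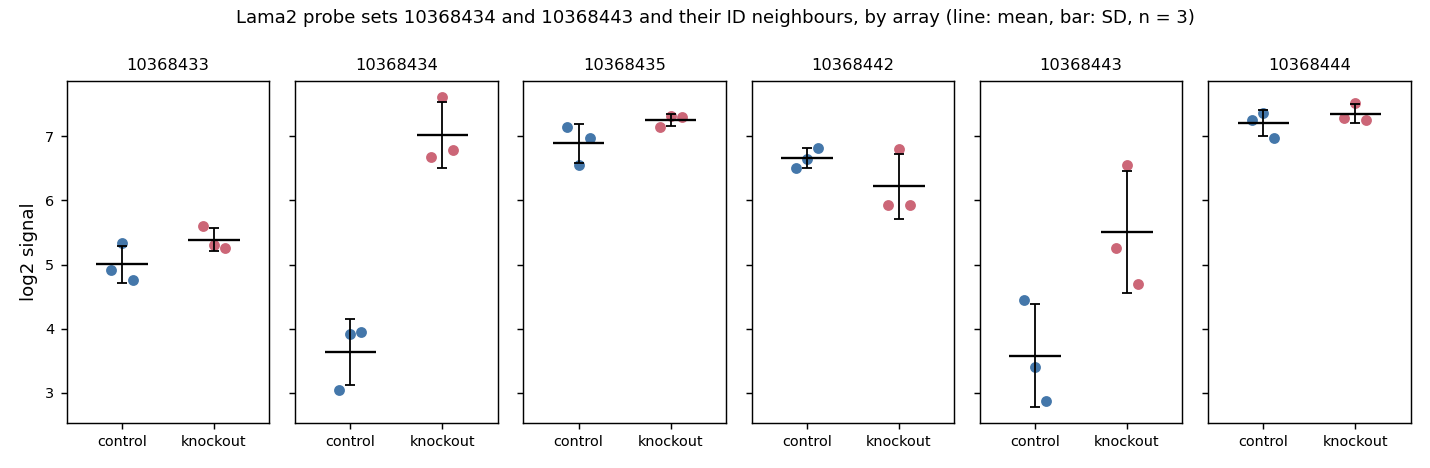
Log2 signal (vertical axis, shared) of Lama2 probe sets 10368434 and 10368443 and of the probe sets with the adjacent IDs, on each array (points), with group mean (line) and SD (bar, n = 3). Probe set 10368434 goes from 3.04 to 3.95 in the controls to 6.68 to 7.62 in the knockouts, and 10368443 from 2.87 to 4.45 to 4.70 to 6.56, while their neighbours stay within a log2 difference of 0.44.

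Each probe set was also set against the rest of its own gene, which asks whether an exon-level signal departs from the gene. With limma's diffSplice, 10368434 was higher by 3.35 relative to the other *Lama2* probe sets (adjusted p = 4.04e-19) and 10368443 by 1.86 (adjusted p = 5.37e-06). Of 53097 probe sets of 4470 genes 252 passed (0.475%), 184 higher (0.347%) and 68 lower (0.128%), and 0 belonged to the other 6 genes. This test takes all probe sets of a gene to vary alike, whereas the within-group SD of *Lama2* probe sets ran from 0.080 to 0.97. It also pools the probe sets of a gene as if independent, though all were read on the same 6 arrays. Its p-values can therefore be too small. On simulated arrays each probe set had its observed residual SD as true spread, and log2 shifts were added to some. There it called more unshifted probe sets than its threshold allows. That count includes probe sets whose gene held a shifted one, and these do differ from the rest of their gene. Spreads estimated on 6 arrays also vary more than true ones, so the simulation may overstate this excess. When each probe set was given its own spread (limma on the signal relative to the gene), neither passed, with an adjusted p of 0.301 for 10368434 and 0.885 for 10368443. In that fit 0 of 53097 probe sets passed. A raw p below 0.05 was reached by 2820 of them, close to the share that this limit lets through where nothing differs. The SE of 10368434 was 0.305 in diffSplice and 0.327 in the fit with its own spread, and that of 10368443 was 0.305 and 0.564. For 10368434 the call thus depends mainly on pooling the gene's probe sets as independent. For 10368443 it depends also on the assumption about spread. Both differences rest on 3 arrays against 3, and low control signals leave their sizes inexact. Genes with many probe sets, and so with many tests, held a call more often. Of the 35 genes with at least 50 probe sets, 9 had at least 1 (25.7%), against 5.1% of all genes tested.

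The other 61 *Lama2* probe sets were spread around 0, 29 higher and 32 lower, with a median log2 difference of -0.03 and a range from -0.51 to 0.51. Without the pair that stood out, the log2 difference of the gene mean was 0.011. The lowest value belonged to 10368417, at 4.83, 3.71 and 5.95 in the controls and 4.37, 4.39 and 4.21 in the knockouts, where the groups overlapped and control 3 alone set the direction. At the brightest probe set, 10368447, the values were 8.26, 8.24 and 8.32 against 8.56, 8.18 and 8.28, with overlapping groups and a log2 difference of 0.067. Besides 10368434, a raw p below 0.01 was reached by 10368468, at 6.59, 6.76 and 6.90 against 7.08, 7.41 and 7.24. Its knockouts were all higher, by 0.49 (SE 0.13, limma adjusted p = 0.557). All knockouts lay above all controls at 9 of 63 probe sets and below them at 3, or 14.3% and 4.76%, beside 7.94% and 5.52% of all probe sets tested.

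Along the gene the small differences were not evenly placed. In order of ID, 15 of the first 16 probe sets, from 10368410 to 10368425, were lower in the knockouts, with a median of -0.16. Of the remaining 47, 30 were higher and 17 lower, with a median of 0.14. The mean of the first 16 was 7.28, 7.06 and 7.58 in controls 1 to 3 and 7.23, 7.09 and 6.99 in knockouts 1 to 3. Those groups overlapped through control 2. The mean of the later ones, without the pair that stood out, was 6.52, 6.44 and 6.58 against 6.58, 6.72 and 6.51, also overlapping. This split was placed after the values were seen and has no test, and which end of the transcript the first IDs lie on was not given in the sources used here.

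**Figure D3:**
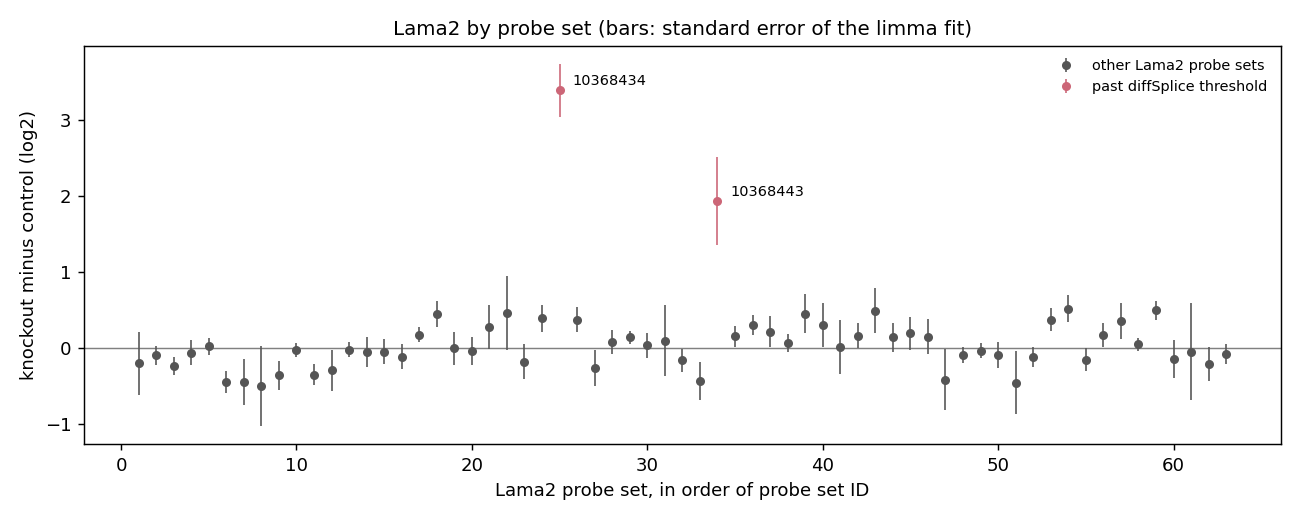
Log2 difference, knockout minus control (vertical axis), of each of the 63 Lama2 probe sets in order of ID (horizontal axis), with the standard error of the limma fit (bars). Probe sets 10368434 at 3.39 and 10368443 at 1.93, in red, stand above the other 61, which lie between -0.51 and 0.51.

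The other laminin chains showed no probe set that departed from its gene. *Lama4* encodes the alpha 4 chain, which endothelial cells lay down. Its gene mean over 41 probe sets was 5.87, 5.98 and 6.05 in controls 1 to 3, and 5.75, 5.99 and 5.71 in knockouts 1 to 3. Knockout 2 lay among the controls, and the log2 difference was -0.15 (SE 0.085, limma adjusted p = 0.458), with values from -0.24 without knockout 2 to -0.097 without knockout 3. Of its 41 probe sets 32 were lower, with a median of -0.16, beside 47.2% lower and a median of 0.01 over all probe sets. Under either normalization 33 or 34 were lower. These probe sets share the same 6 RNA samples and are not separate evidence. In 1 of the 41, 10362549, the knockouts (5.63, 5.89 and 6.14) lay below the controls (6.24, 6.74 and 6.69), and 0 lay above. These shares, 2.44% and 0%, stand beside 5.52% and 7.94% of all probe sets. The highest difference, 0.55 at 10362571, and the lowest, -0.75 at 10362550, both came from overlapping groups, and at the latter knockout 3 alone was low, at 3.78. Of the 41, 9 had a mean signal below that of the median control feature, 4.19.

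*Lamc1* encodes the gamma 1 chain that most laminins share. Its gene mean over 28 probe sets was 7.30, 7.35 and 7.37 in controls 1 to 3, and 7.28, 7.35 and 7.34 in knockouts 1 to 3. The groups overlapped and the log2 difference was -0.018 (SE 0.048, limma adjusted p = 0.892), with 15 probe sets lower and 13 higher. A difference as small as this kept no sign, as the brightest probe set, 10358819, gave 0.027. Single probe sets ran from -0.59 at 10358834, where the groups overlapped, to 0.43 at 10358833, where knockouts (6.29, 6.19 and 6.63) lay above controls (6.08, 5.82 and 5.91).

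*Lamb3* encodes the beta 3 chain of an epithelial laminin that anchors skin. Its gene mean over 25 probe sets was 5.17, 5.40 and 5.20 in controls 1 to 3, and 5.25, 5.26 and 5.41 in knockouts 1 to 3. The groups overlapped, and the log2 difference was 0.052 (SE 0.078, limma adjusted p = 0.801). Its highest difference was 0.66 (SE 0.14) at 10352857, where the controls were at 4.03, 4.22 and 3.78 and the knockouts at 4.64, 4.56 and 4.82. The groups were apart there, with a limma adjusted p of 0.522, and of 25 probe sets this was the 1 that lay apart. Over all probe sets 7.94% lay apart upward and 5.52% downward. The lowest difference was -0.36 at 10352853 and the brightest, 10352843, had -0.087, both with overlapping groups.

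*Sparc* was the gene of the 7 with the smallest p. Its gene mean over 11 probe sets was 11.18, 11.20 and 11.28 in controls 1 to 3, and 11.08, 11.01 and 11.03 in knockouts 1 to 3. All knockouts lay below all controls, as in 8.85% of all genes. The difference was small, -0.18 on the log2 scale (SE 0.051) or 1.13-fold lower, and in limma the raw p was 0.00787 and the adjusted p 0.231. The value ran from -0.20 to -0.15 with single arrays left out, and from -0.21 to -0.097 over 16 alternatives, with adjusted p from 0.0878 to 0.621.

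The exon-level signals of *Sparc* had 1 direction. All 11 were lower in the knockouts as deposited and under both normalizations, beside 47.2% of all probe sets as deposited. In 8 of the 11 all knockouts lay below all controls, beside 5.52% of all probe sets. The 11 read 1 gene in the same 6 RNA samples and are not separate evidence. The lowest difference was at 10386059, with 11.39, 11.41 and 11.59 in the controls and 11.19, 10.97 and 11.18 in the knockouts. There the log2 difference was -0.35 (SE 0.10, limma adjusted p = 0.578). The difference nearest 0 was -0.053 at 10386065, with overlapping groups. At the brightest, 10386060, the controls were at 11.98, 12.01 and 11.99 and the knockouts at 11.88, 11.85 and 11.96, apart by less than 0.1 on average. None of the 11 passed alone, and none differed from the rest of the gene.

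*Timp2* and *Timp3* encode inhibitors of metalloproteinases, of which *Timp2* also takes part in the activation of pro-gelatinase A and *Timp3* stays bound to matrix. The gene mean of *Timp2* over 9 probe sets was 10.10, 9.86 and 10.14 in controls 1 to 3, and 9.97, 9.96 and 9.89 in knockouts 1 to 3. Control 2 was the lowest of all, so the groups overlapped, and the log2 difference was -0.096 (SE 0.077, limma adjusted p = 0.598), or -0.18 without control 2 and -0.043 without control 3. Of its 9 probe sets 7 were lower as deposited and 9 under either normalization. They ran from -0.26 at 10393568 to 0.013 at 10393564, and the brightest, 10393560, had 0.0067.

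The gene mean of *Timp3* over 9 probe sets was 9.32, 9.43 and 9.39 in controls 1 to 3, and 9.32, 9.33 and 9.24 in knockouts 1 to 3. The groups overlapped, and the log2 difference was -0.082 (SE 0.052, limma adjusted p = 0.514). Of its probe sets 7 of 9 were lower, 8 under either normalization, from -0.24 at 10365483 to 0.073 at 10365490, the brightest.

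**Figure D4:**
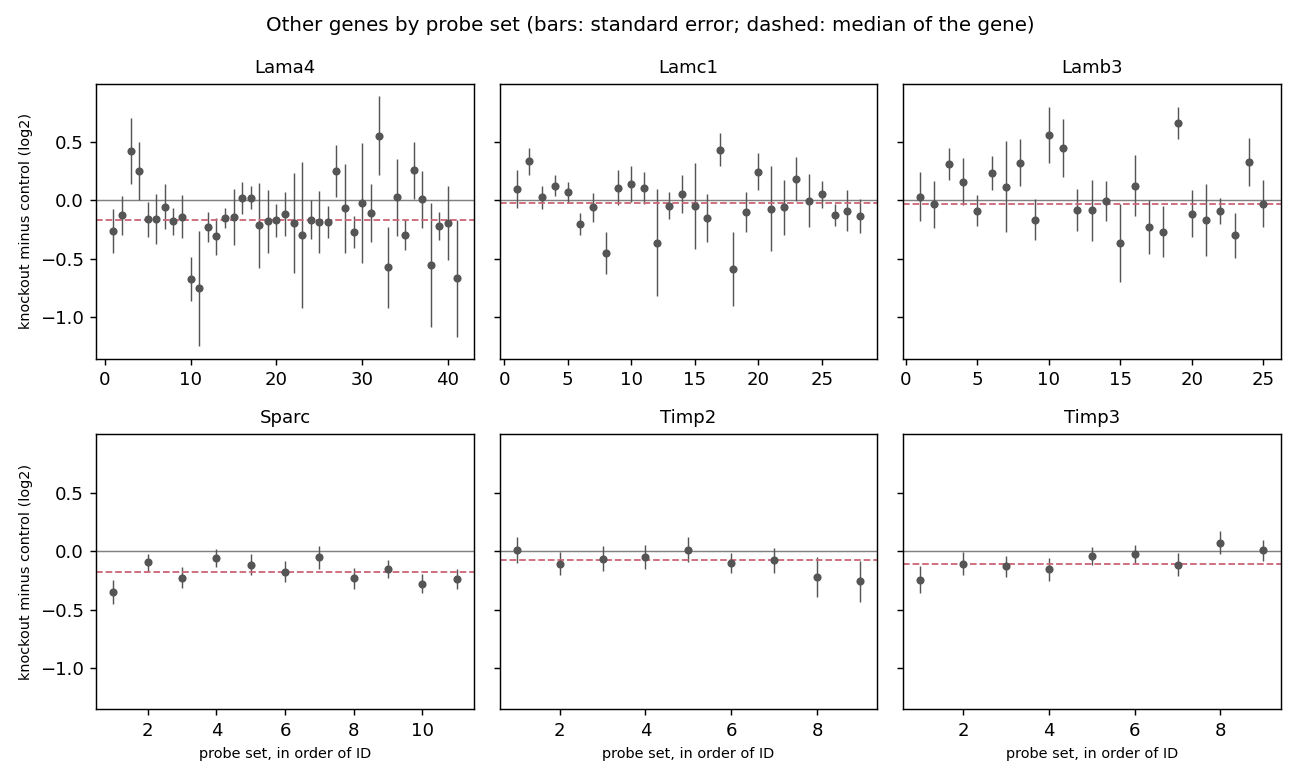
Log2 difference, knockout minus control (vertical axis, shared), of each probe set of the other 6 genes in order of ID (horizontal axis), with standard errors of the limma fit (bars) and the median of the gene (dashed). All 11 Sparc probe sets lie between -0.35 and -0.05, and Lama4 has 32 of 41 below 0.

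The sequences before the annotated starts of *Sparc*, *Timp2* and *Timp3*, the genes outside the laminins, and of *Lama2* are shown because most or all probe sets of the first 3 had values below 0, whereas those of *Lama2* lay on both sides. None of the probe sets of *Timp2* and *Timp3* had a raw p below 0.05. They are the 250 bases upstream of the start in RefSeq (GRCm38.p6), whose table held 5 of the 7 genes, written 5′ to 3′ on the gene's strand. Capitals mark a GC box, GGGCGG on either strand.
Lama2, chr10:27616943-27617192, minus strand: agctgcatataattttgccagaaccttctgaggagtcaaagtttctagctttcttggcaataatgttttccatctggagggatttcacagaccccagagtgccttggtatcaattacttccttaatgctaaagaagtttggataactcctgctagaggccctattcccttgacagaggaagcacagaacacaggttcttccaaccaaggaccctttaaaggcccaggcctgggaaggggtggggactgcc
Sparc, chr11:55420081-55420330, minus strand: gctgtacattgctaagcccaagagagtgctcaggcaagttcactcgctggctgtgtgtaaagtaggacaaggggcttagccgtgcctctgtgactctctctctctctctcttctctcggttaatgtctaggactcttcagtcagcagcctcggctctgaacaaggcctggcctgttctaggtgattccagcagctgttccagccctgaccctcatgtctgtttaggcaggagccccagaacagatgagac
Timp2, chr11:118355412-118355661, minus strand: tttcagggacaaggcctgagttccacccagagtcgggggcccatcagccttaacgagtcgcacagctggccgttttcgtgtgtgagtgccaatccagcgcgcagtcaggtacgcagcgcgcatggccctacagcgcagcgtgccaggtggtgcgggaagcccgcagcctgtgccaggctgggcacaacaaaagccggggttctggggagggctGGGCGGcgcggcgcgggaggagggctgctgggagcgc
Timp3, chr10:86300162-86300411, plus strand: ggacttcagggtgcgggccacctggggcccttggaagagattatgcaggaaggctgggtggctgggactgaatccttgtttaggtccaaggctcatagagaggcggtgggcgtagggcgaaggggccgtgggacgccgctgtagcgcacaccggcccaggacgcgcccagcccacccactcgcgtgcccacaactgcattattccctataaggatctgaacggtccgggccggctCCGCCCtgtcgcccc
The windows of *Timp2* and *Timp3* each held 1 GC box, which 32.7% of the 32851 promoter windows hold. That letter string is not in the windows of *Lama2* and *Sparc*. TATAAA, held by 12.4% of all windows, and TGANTCA, the AP-1 motif, held by 6.75%, were searched on both strands and are in none of the 4. The windows differed in CpG count, with 0 in *Lama2*, 4 in *Sparc*, 21 in *Timp2* and 18 in *Timp3*, where the median over all windows was 6. A match describes letters and no binding.

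Around the 7 genes, 0 members of any matrix list passed the gene test, in which 0% of all genes passed. Of 11 laminin chains 5 were measured. The 1 not yet described is *Lamb1*, the beta 1 chain that pairs with gamma 1 in brain, at 6.75, 6.72 and 6.76 in the controls and 6.88, 6.85 and 6.80 in the knockouts. All its knockouts were higher, by 0.10 (SE 0.046, limma adjusted p = 0.379), but its brightest probe set had -0.14. Thus 3 of 5 chains were higher and 2 lower, with a median of 0.05, as under either normalization.

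Of 33 other basement membrane components 13 were measured, 3 higher and 10 lower, as under either normalization, with a median of -0.02 beside -0.0044 over all genes. The smallest p belonged to *Fn1*, fibronectin, at 8.60, 8.75 and 8.76 in the controls and 8.39, 8.49 and 8.53 in the knockouts. Its knockouts were all lower, by 0.23 on the log2 scale (SE 0.064, limma adjusted p = 0.230). *Hmcn1*, the large matrix protein hemicentin, had 0.13 and *Smoc1*, a relative of SPARC, -0.093. For *Hmcn1* the direction turned at the brightest probe set (-0.63).

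Of 28 genes of laminin receptors and the dystroglycan complex, which ties laminin to the cytoskeleton, 8 were measured, 4 higher and 4 lower, as under either normalization, with a median of 0.02. *Utrn*, the dystrophin relative utrophin, was at 7.60, 7.71 and 7.61 in the controls and 7.83, 7.82 and 7.78 in the knockouts. All its knockouts were higher, by 0.17 (SE 0.050, limma adjusted p = 0.243). *Sgcd*, a sarcoglycan of the same complex, also had all knockouts above all controls (0.17, SE 0.055, limma adjusted p = 0.258), and *Pomt2*, which glycosylates dystroglycan, had all below (-0.083). Knockouts lay above controls in 2 of these 8 genes and below in 1, beside 11.3% and 8.85% of all genes.

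Among metalloproteinases and their inhibitors 10 of 31 genes were measured, 3 higher and 7 lower as deposited and 2 higher and 8 lower under either normalization, with a median of -0.04. *Mmp19* had -0.19 (SE 0.069), *Adamts14* -0.12 and *Adamts4*, which cleaves proteoglycans, 0.10. *Mmp19* was higher by 0.19 at its brightest probe set. In the SPARC family and other matricellular proteins 7 of 19 were measured, 4 higher and 3 lower as deposited, and 3 higher and 4 lower under either normalization, with a median of 0.0024. *Spock1*, a neural proteoglycan with a SPARC-like domain, had 0.094 and *Ccn2* 0.082, while *Smoc1*, named above, is also in this list, so its measured members lay on both sides of 0.

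**Figure D5:**
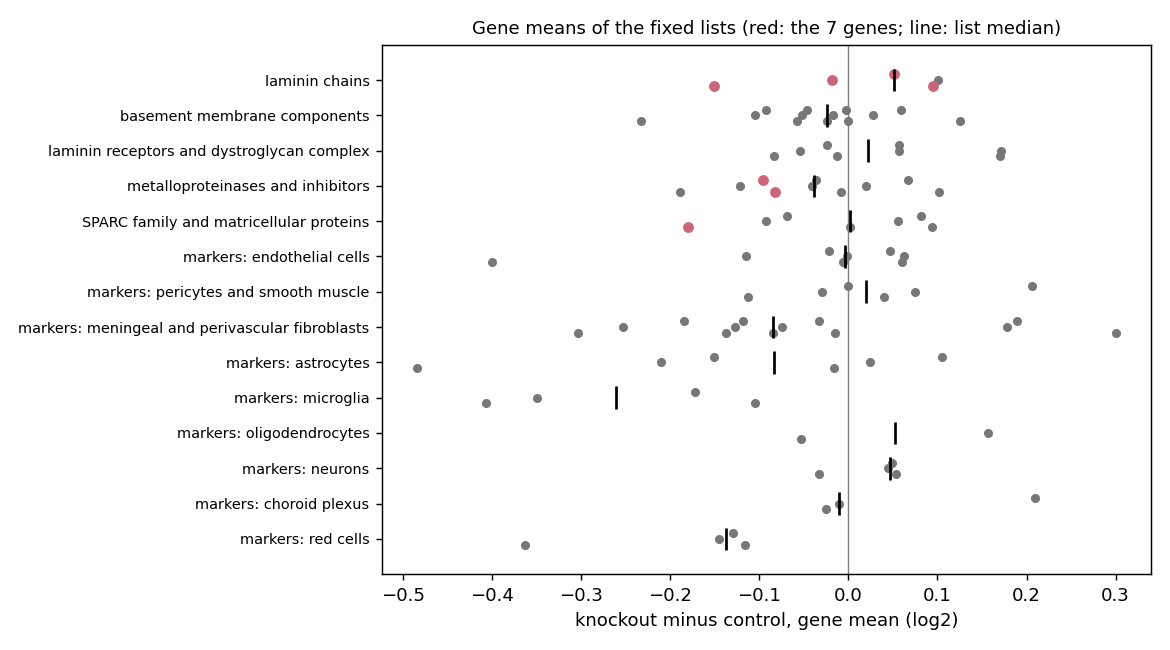
Log2 difference of the gene mean, knockout minus control (horizontal axis), of every measured gene of the fixed lists (points, the 7 genes in red), with the median of each list (line). The microglial and red cell lists have 4 of 4 measured genes below 0, and the matrix lists lie on both sides of 0.

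No marker of the cells that make or border the basement membrane passed the test. Of 8 measured endothelial markers 3 were higher and 5 lower, with a median of -0.0033. *Ramp2* had all knockouts below the controls (-0.11), *Ctla2a* had -0.40 at a dim signal and -0.13 without control 3, and *Pecam1*, the adhesion molecule of endothelium, had 0.062. Of 6 measured pericyte and smooth muscle markers 3 were higher and 3 lower, with *Pln* at 0.21, *Rgs5* at -0.11 and *Des* at 0.075. All knockouts of *Pln* lay above the controls. List means were 6.42 to 6.53 in the controls and 6.45 to 6.55 in the knockouts. Of 13 measured markers of meningeal and perivascular fibroblasts 10 were lower and 3 higher, with a median of -0.09. There *Col1a1*, a fibrillar collagen, had -0.30 with all knockouts below the controls, and *Dcn*, decorin, had -0.25. *Omd*, osteomodulin, had 0.30 with all knockouts above the controls. Over all genes 8.85% lay below in this way and 11.3% above. List means were 6.34 to 6.52 in the controls and 6.32 to 6.45 in the knockouts.

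*Sparc* is known to be expressed by astrocytes, microglia and endothelial cells. Of the endothelial markers given above 5 of 8 were lower, with a median of -0.0033. Values for astrocytes, microglia and red cells follow. Over all genes 51.8% were lower, and all knockouts lay below all controls in 8.85% and above in 11.3%. Of 6 measured astrocyte markers 4 were lower, 5 after quantile normalization and 4 after median centring, with a median of -0.08. *S100b* (-0.21, SE 0.066) and *Gja1*, the astrocyte gap junction protein (-0.15, SE 0.054), had all knockouts below the controls, and *Gfap* had -0.48 (SE 0.25) with overlapping groups, from -0.68 without control 2 to -0.24 without knockout 2. List means were 10.22 to 10.35 in the controls and 10.09 to 10.25 in the knockouts. All 4 measured microglial markers of 19 were lower, with a median of -0.26, *Ly86* at -0.35, *Cd68* at -0.41 and *Ptprc* at -0.17. Their list mean was 7.04 to 7.22 in the controls and 7.15, 6.39 and 7.06 in knockouts 1 to 3. Knockout 2 was the lowest of the 6 arrays. All 4 measured red cell markers of 12 were lower, with a median of -0.14, *Slc4a1* at -0.36, *Hbq1b* at -0.15 and *Hba-x* at -0.12. The list means were 4.65 to 4.73 in the controls and 4.47 to 4.55 in the knockouts. *Ly86* and *Slc4a1* also had all knockouts below the controls, but at its brightest probe set *Slc4a1* had 0.24. The part of these cell types in the values of *Sparc* was not tested.

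Markers of the remaining cell types had small values. Of 4 neuronal markers 3 were higher, with *Syt1* at 0.053, *Kif5a* at 0.049 and *Camk2b* at 0.045. For oligodendrocytes 2 of 14 were measured, *Aspa* at 0.16 and *Cnp* at -0.053. All knockouts of *Aspa* lay above the controls, as in 11.3% of all genes. For the choroid plexus, whose epithelium has its own basement membrane, 3 of 12 were measured, *Kcnj13* at 0.21, *Ace* at -0.025 and *Sostdc1* at -0.010. No marker of any list passed the threshold.

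Over the 6 arrays, the genes whose mean followed that of a member most closely were compared by Pearson correlation among 4207 genes with at least 3 probe sets, as a description of the same 6 samples. *Sparc* was followed by *Hey2*, a Notch target (r = 0.998), and *Pxdc1* (0.995). *Lama2* was followed by *Ddx50* (0.993) and *Igsf8* (0.993), *Lama4* by *Gulp1* (0.977) and *Sntg2* (0.972), *Lamc1* by *Prorp* (0.994) and *Il13* (0.970), and *Lamb3* by *Kcnj12* (0.994) and *Recql5* (0.969). *Timp2* was followed by *Pam* (0.979) and *Rasl10a* (0.979), and *Timp3* by *Adcy10* (0.986) and *Vnn3* (0.971). No member was among the closest genes of another.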

How the data were processed

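Total RNA of mouse brain was hybridised to 1-colour Affymetrix whole-transcript arrays, 3 per group. The authors deposited log2 signals with 2 decimals per exon-level probe set, and the submitters' processing notes name MAS5 without a version. The log2 scale was read from the values, which run from 1.69 to 14.41, while the scaling of arrays and the build were not given in the sources used here. The deposited signals were used unchanged, because array medians differed by less than the limit of 0.1 for quantile normalization. Of 65535 probe sets, 6616 with IDs below the first annotated one were taken as control features and left out. Of the rest 53644 had 1 symbol, 877 several and 4398 none, and old symbols were updated through synonyms in RefSeq (GRCm38.p6).

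Knockout minus control was fitted with limma 3.58.1 (R 4.3.3, two-sided, without trend) per probe set and per gene mean, with Benjamini-Hochberg adjustment over all probe sets or genes and a threshold of 0.05. diffSplice set each probe set against the rest of its gene. An exact permutation test of 3 against 3 cannot go below 0.1, and the number of arrays limits the precision. The fits were tested on simulated data. Members and lists were chosen with earlier results of these data known. Named were the 7 genes, their brightest and most extreme probe sets, *Lama2* probe sets with a raw p below 0.01, the 3 other genes with the smallest raw p in each of 14 lists, and the 2 genes most alike in profile. Probe set 10368443 was named after its values were seen. Same-numbered arrays deviated together with correlations of -0.10 to 0.037, so the numbers were not taken as pairs. Alternatives covered scaling, filtering, array weights, the model of variance, replicate numbers, single arrays, the summary of a gene and the threshold.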

Additional observations from a re-analysis of the deposited data

Results flagged for a closer look

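The control features of the array, left out of the main fits, were brighter in the knockouts. Their median on each array was the line for the change of side and the bound at 10368434. The median of these features was, in log2 signal, 4.12 ± 0.036 (SD, n = 3) in the controls and 4.25 ± 0.047 (SD, n = 3) in the knockouts, a difference of 0.133, and every knockout lay above every control. At *Lama2* probe set 10368434 the difference between the groups was 3.39.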

How the results depend on the processing

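With 3 arrays a group, differences of the size seen at most member genes lie within the spread between arrays. The tests relative to the gene by each probe set's own spread, and gene means without probe sets that differ from their gene, were chosen after seeing the data. Over all probe sets 3 passed. Quantile normalization gave 6, median centring 7, array weights 7, a threshold of 0.1 also 7, dropping the dimmest 1 in 3 gave 19, trend and robust moderation 21, the replicate number as a block 0, and dropping single arrays 0 to 4. The count of genes, 0, became 5 of 1143 with probe sets above the 95th percentile of control features, a limit of 9.98 that 3 of the 7 genes reached with any probe set, and 0 of these 3 passed. It stayed 0 without any 1 array. Only 1 of 6 arrays correlated best with its own number in the other group, and with the block the diffSplice count was 186 against 252.

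The count of probe sets that differed from their gene, 252, was 139 without the dimmest 1 in 3 probe sets, 0 with the relative signal, and 190 to 354 without 1 array. The 2 of *Lama2* became 0 without the dimmest probe sets, since both have mean signals under the limit of 5.82. The count was also 0 with the relative signal. There the differences of 3.35 and 1.86 were the same, the spread was each probe set's own, and the gene's probe sets were not pooled. Without 1 array both passed, with differences of 3.05 to 3.55 for 10368434 and 1.38 to 2.31 for 10368443.

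Member gene means kept their direction in all alternatives for *Lama2* (0.0033 to 0.15), *Lama4* (-0.24 to -0.097) and *Sparc*, and none passed in any. Signs turned, at values that passed in no setting, as follows, and the cause was not tested. At brightest probe sets *Lamc1* had 0.027, *Lamb3* -0.087, *Timp2* 0.0067, *Timp3* 0.073, *Lamb1* -0.14, *Hmcn1* -0.63, *Mmp19* 0.19, *Rgs5* 0.0067, *Sostdc1* 0.057 and *Slc4a1* 0.24. By the median of probe sets *Lamc1* had 0.12, *Lamb1* -0.012, *Kif5a* -0.017 and *Ace* 0.093. Above the limit of 9.98 *Timp3* had 0.040, *Utrn* -0.042, *Rgs5* 0.0067 and *Cnp* 0. Without the dimmest 1 in 3 *Hmcn1* had -0.017, *Mmp19* 0.19 and *Des* -0.13. Scaling turned *Lamc1* probe set 10358819 (-0.0047, quantile), *Timp2* 10393560 (-0.029 quantile, -0.013 centred) and *Timp2* 10393564 (-0.018 and -0.0067), and array weights turned 10393560 (-0.0012). Leaving out 1 array gave ranges of -0.037 to 0.0043 for *Lamc1*, -0.0020 to 0.12 for *Lamb3*, -0.00033 to 0.14 for *Ccn2*, -0.33 to 0.050 for *Ptprc*, -0.064 to 0.015 for *Ace* and -0.077 to 0.060 for *Sostdc1*. At probe sets these were -0.043 to 0.15 (10368447), -1.07 to 0.053 (10368417), -0.045 to 0.075 (10358819), -0.15 to 0.047 (10352843), -0.098 to 0.062 (10393560) and -0.058 to 0.077 (10393564). The range was -0.18 to -0.043 for *Timp2*, -0.11 to -0.053 for *Timp3*, 0.040 to 0.15 for *Lama2* and -0.20 to -0.15 for *Sparc*.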
